A study of Mus musculus with 14 samples.

Results

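The genes described here are 9 complement genes in whole mouse kidney: C3, C1qa, C1qb, C1qc, C4b, C2, Cfb, Cd55 and C3ar1. They were chosen by gene symbol, each has 1 row in both deposited tables, and they are 9 of the 23682 genes that both tables hold. Kidneys of 14 mice in 3 groups were profiled by bulk RNA sequencing. All of the mice carried the actin-rtTA transgene, a doxycycline-dependent activator, and all drank doxycycline. The 4 controls (CTL) carried that transgene alone and had their kidneys taken at 30 days on doxycycline, and no injection is recorded for them. The other 10 were i-TERTci mice, which also carry TetOp-TERTci, so that doxycycline induces a catalytically inactive telomerase reverse transcriptase throughout the body rather than in 1 kidney cell type. Of these, 5 received the vehicle DMSO and 5 received GSK2830371, an inhibitor of the phosphatase WIP1 (GSK). Injections were daily and intraperitoneal from about day 15, when urinary protein was above 10 mg/mL. The DMSO kidneys (replicates 1 to 5) were taken at 29, 29, 29, 38 and 31 days and the GSK kidneys at 31, 49, 49, 49 and 28 days. Strain, age and sex are not in the labels.

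Complement is a cascade of plasma and cell-surface proteins that tags targets for removal and calls in leukocytes. In the classical pathway, C1q, a recognition molecule built from A, B and C chains, binds immune complexes or damaged cells, and its proteases cut C4 and then C2 to form a C3 convertase. In the alternative pathway, C3 itself joins with factor B (Cfb), which is cut by factor D, to form a second convertase that amplifies C3 cleavage. C3 is thus common to all routes. CD55 (decay-accelerating factor) dissociates both convertases from cell surfaces, and C3AR1 is the receptor for the C3a fragment. Most circulating complement is made by the liver, C1q is made mainly by macrophages and related myeloid cells, and kidney tubule cells are known to make C3 when injured.

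All 9 genes are protein coding and lie on the minus strand (GRCm38, GENCODE M21). C3 (ENSMUSG00000024164) is on chromosome 17 from 57203970 to 57228136. The other convertase genes form a cluster on the same chromosome, with C4b (ENSMUSG00000073418) from 34728380 to 34743882, Cfb (ENSMUSG00000090231) from 34856374 to 34862518 and C2 (ENSMUSG00000024371) from 34862604 to 34898265. C1qb (ENSMUSG00000036905, 136880129 to 136886187), C1qc (ENSMUSG00000036896, 136889804 to 136893065) and C1qa (ENSMUSG00000036887, 136895917 to 136898803) are neighbours on chromosome 4. Cd55 (ENSMUSG00000026399) is on chromosome 1 from 130439027 to 130462744, and C3ar1 (ENSMUSG00000040552) on chromosome 6 from 122847138 to 122856161. A read-through gene, Gm20547, shares 79.5% of the exon bases of Cfb and 42.77% of those of C2 on the same strand, and it is not in the tables used here. Reads of Cfb and C2 are therefore uncertain where the authors' counting could not assign them, and the same holds for C4b, whose near-identical copy is C4a. Zbtb12 lies opposite 4.158% of the C2 exon bases and Gm16083 opposite 2.102% of those of Cd55, and the strand setting of the counting is not given in the sources used here.

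RefSeq promoters were matched for 5 of the 9 genes (GRCm38.p6). The 250 bases before the start are shown for C3, whose reads rose most, and for the neighbours C1qb and C1qc, whose reads moved together across libraries. Capitals mark motif matches.
C3, chr17:57228137-57228386, minus strand: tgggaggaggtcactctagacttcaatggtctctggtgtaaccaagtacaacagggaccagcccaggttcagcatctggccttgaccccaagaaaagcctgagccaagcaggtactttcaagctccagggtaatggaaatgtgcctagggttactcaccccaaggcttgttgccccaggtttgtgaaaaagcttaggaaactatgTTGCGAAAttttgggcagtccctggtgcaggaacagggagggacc
C1qb, chr4:136886201-136886450, minus strand: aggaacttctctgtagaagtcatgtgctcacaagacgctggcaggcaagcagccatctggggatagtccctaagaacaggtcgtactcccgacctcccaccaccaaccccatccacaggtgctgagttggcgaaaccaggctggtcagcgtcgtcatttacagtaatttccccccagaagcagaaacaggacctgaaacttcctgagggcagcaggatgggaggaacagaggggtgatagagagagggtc
C1qc, chr4:136892915-136893164, minus strand: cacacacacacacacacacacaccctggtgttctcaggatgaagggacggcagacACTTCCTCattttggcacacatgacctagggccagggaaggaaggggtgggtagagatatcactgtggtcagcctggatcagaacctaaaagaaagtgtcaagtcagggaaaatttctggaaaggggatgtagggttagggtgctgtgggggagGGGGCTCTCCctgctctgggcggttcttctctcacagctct
The search covered 5 motifs on both strands of a window from 250 bases before to 50 bases after the start: the NF-kB motif, GAS (TTCNNNGAA), ISRE (GAAANNGAA), C/EBP (TTNCGCAA) and PU.1 (GAGGAAGT). The C3 window held 1 C/EBP match, whose first base lies at -45 and which reads TTGCGAAA on the gene's strand. The C1qc window held an NF-kB match at -41 and a PU.1 match at -195, and no match was found in the C1qb, Cd55 or C3ar1 windows. Of 32851 RefSeq promoters of this length, 0.7975% held a C/EBP match, 8.459% an NF-kB match, 3.202% a PU.1 match, 8.298% a GAS match and 8.56% an ISRE match. These matches are letters in a window and no test of binding.

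Several measures of the libraries moved with the groups. A control library held 48.5 M to 64.6 M recovered reads, a DMSO library 47.2 M to 48.8 M and a GSK library 48.4 M to 49.4 M. Mitochondrial genes held 14.4% to 24.2% of control reads, 4.95% to 9.52% with DMSO and 5.07% to 8.35% with GSK. Xist, the RNA of the inactive X chromosome in females, was expressed in all 4 controls, in DMSO replicates 2 and 5 and in GSK replicates 2, 3 and 4. Those 3 GSK kidneys are also the 3 taken at 49 days. The controls' library labels form a number block of their own, so genotype and label block cannot be told apart. Tert, the gene of the transgene, had 117 to 183 normalised reads in the controls, 574 to 2732 with DMSO and 231 to 2546 with GSK, without overlap. Proximal tubule markers were abundant in every library (summed level of at least 454677 normalised reads in the controls and 77691 in the i-TERTci kidneys).

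Of the 9 components, 5 were higher in DMSO-treated i-TERTci kidneys than in controls, 0 were lower and 4 did not pass the test. Those that rose were C3, C1qa, C1qc, C4b and Cfb. The same 5 rose in the GSK kidneys, and 0 of 9 differed between GSK and DMSO. These counts stand against a wide background: 48.3% of the 18810 genes tested passed in DMSO against CTL (25.2% higher and 23.1% lower) and 46.3% in GSK against CTL (24.3% higher and 22.1% lower), by limma at an adjusted p of 0.05. The background in GSK against DMSO was 0.000% of genes. The median log2 change of the 9 was 1.61 with DMSO and 1.70 with GSK, beside 0.03 and 0.01 over all genes tested. In GSK against DMSO it was 0.01, beside -0.01. Both comparisons with controls use the same 4 control libraries. More cells of a type and more RNA per cell cannot be told apart in these bulk samples.

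C3, the protein on which all routes converge, stood at 1757, 2169, 2018 and 1311 normalised reads (reads divided by the library's size factor) in control replicates 1 to 4. In DMSO replicates 1 to 5 it stood at 178529, 118705, 132978, 6458 and 49923. The GSK kidneys had 149756, 208331, 38656, 34390 and 200164. All 10 i-TERTci kidneys were above all controls, with the lowest level in DMSO replicate 4, the 38-day kidney. The control mean was 1814 ± 376 (SD, n = 4) and the DMSO mean 97318 ± 68604 (SD, n = 5), and C3 rose by 5.12 on the log2 scale (SE 0.86, limma adjusted p = 0.000369). With GSK the mean was 126259 ± 84948 (SD, n = 5) and the log2 change 5.76 (limma adjusted p = 0.000173). The level spanned 27.6-fold within the DMSO group, 6.06-fold within the GSK group and 1.65-fold within the controls. Without DMSO replicate 4 the log2 change in DMSO against CTL was 5.93, so this kidney moves the fold by 1.76 times. GSK and DMSO kidneys overlapped, with a difference of 0.64 (95% confidence interval -1.12 to 2.39).

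**Figure D1:**
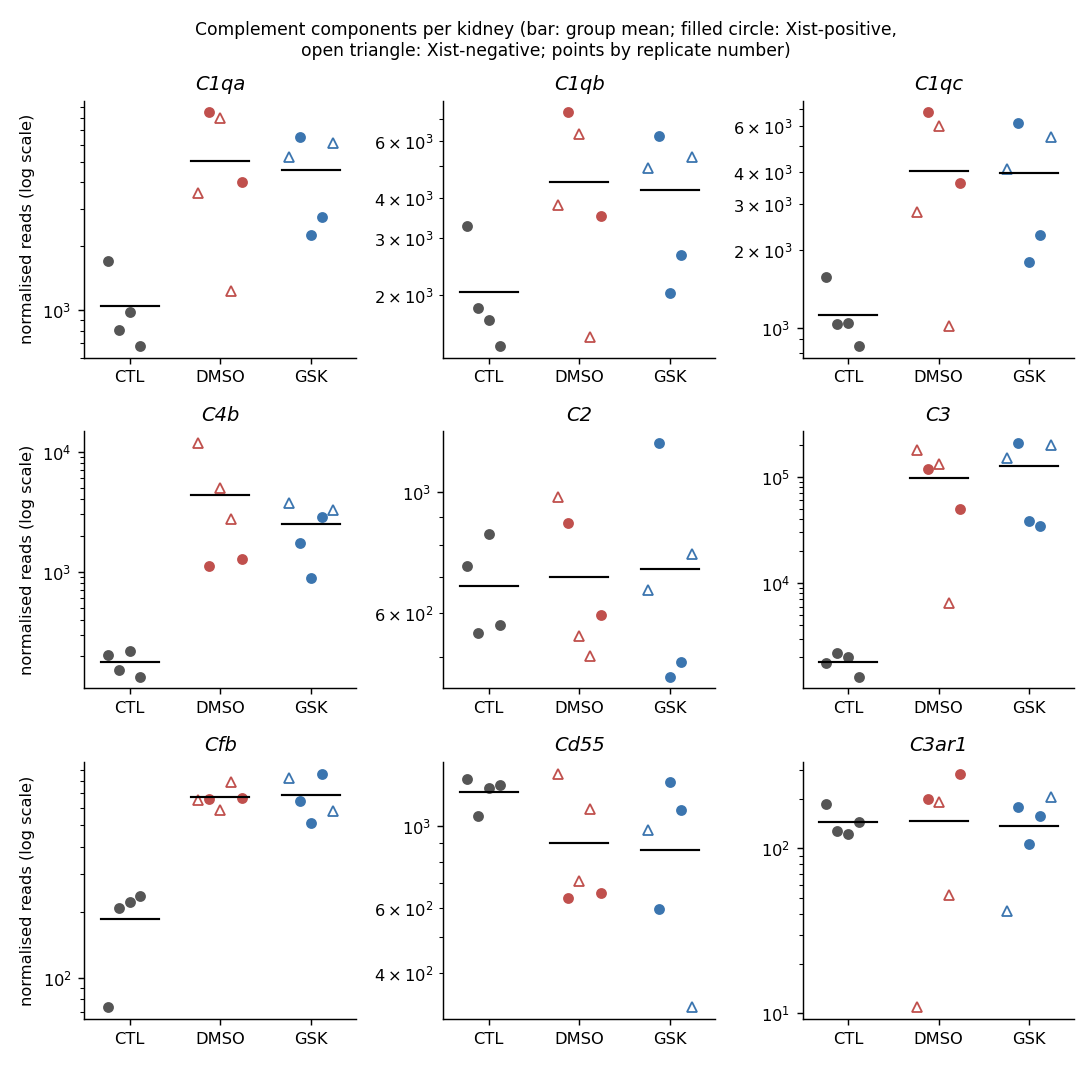
Normalised reads of the 9 complement genes (vertical log axes, each with its own range) in the 4 control, 5 DMSO and 5 GSK kidneys; each point is 1 library, ordered by replicate number, and the bar is the group mean. Filled circles are Xist-positive and open triangles Xist-negative libraries. C3, C4b and Cfb lie above every control in all 10 i-TERTci kidneys, and C2 and C3ar1 overlap in all 3 groups.

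The classical pathway begins with C1q. C1qa, the A chain, had 1709, 812, 980 and 679 normalised reads in the controls, 3575, 8502, 7977, 1236 and 3990 with DMSO, and 5243, 6548, 2256, 2744 and 6106 with GSK. The lowest DMSO kidney, replicate 4, fell below control replicate 1, and every GSK kidney was above all controls. C1qa rose by 2.07 with DMSO (log2, SE 0.51, limma adjusted p = 0.00456) and by 2.10 with GSK (limma adjusted p = 0.00452). C1qc, the C chain, had 1566, 1033, 1040 and 848 in the controls, 2780, 6760, 5974, 1017 and 3601 with DMSO, and 4083, 6161, 1794, 2268 and 5434 with GSK. Its groups were ordered as for C1qa, with an overlap in the DMSO group and none in the GSK group. C1qc rose by 1.61 (SE 0.50, limma adjusted p = 0.0162) and 1.70 (limma adjusted p = 0.0129).

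C1qb, the B chain, differed less. Its levels were 3275, 1821, 1671 and 1391 in the controls, 3786, 7332, 6269, 1487 and 3515 with DMSO, and 4924, 6182, 2029, 2667 and 5331 with GSK. Both i-TERTci groups overlapped the controls. The GSK overlap was with control replicate 1 alone, whereas DMSO replicate 4 lay below control replicates 1, 2 and 3. The log2 changes of 1.02 (SE 0.44, limma adjusted p = 0.0701) and 1.01 (limma adjusted p = 0.0750) did not pass. Without control replicate 1 they were 1.27 (limma adjusted p = 0.0409) and 1.26 (limma adjusted p = 0.0442). Without DMSO replicate 4 the DMSO value was 1.37 (limma adjusted p = 0.00867), and without GSK replicate 3 the GSK value was 1.24 (limma adjusted p = 0.0323).

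The 3 chains form 1 molecule, and their levels within a kidney shifted against each other. The ratio of C1qa to C1qb reads was 0.446 to 0.586 in the controls, 0.831 to 1.27 with DMSO and 1.03 to 1.15 with GSK. The lowest i-TERTci ratio lay above the highest control ratio. C1qc to C1qb gave 0.478 to 0.622, 0.684 to 1.02 and 0.83 to 1.02, again without overlap with the controls. C1qa to C1qc gave 0.786 to 1.09, 1.11 to 1.34 and 1.06 to 1.28, where the GSK range overlapped that of the controls. These chain ratios were chosen after their values were seen and carry no test. Across kidneys of the same group the chains nevertheless moved together: the correlation of deviations from the group mean (log2 values, 14 libraries) was 0.99 for C1qa with C1qb, 0.98 for C1qa with C1qc and 0.98 for C1qb with C1qc, as a description over points that share libraries.

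**Figure D2:**
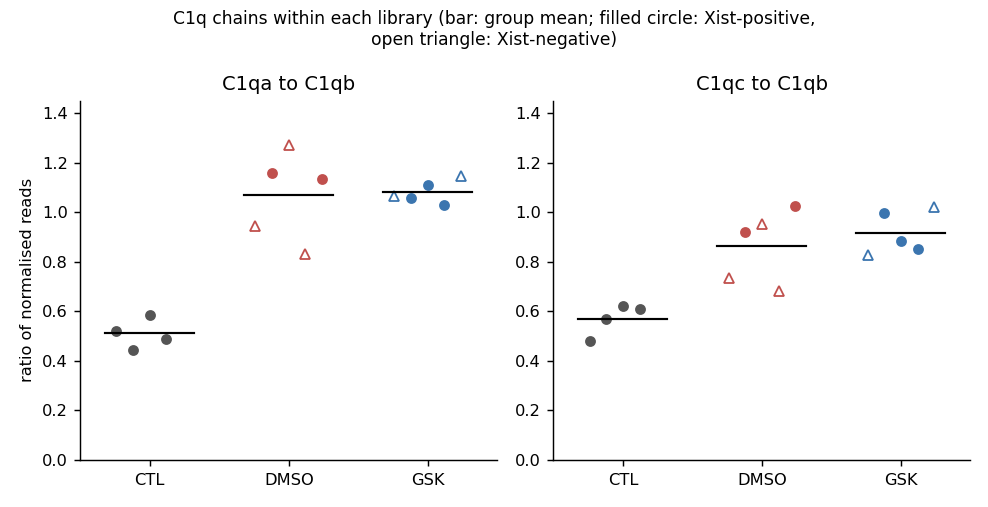
Ratio of normalised reads of C1qa to C1qb and of C1qc to C1qb (vertical axes from 0) in each of the 14 libraries; bars are group means, filled circles Xist-positive and open triangles Xist-negative libraries. Control ratios of C1qa to C1qb end at 0.586 and those of the i-TERTci kidneys begin at 0.831.

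Macrophage markers were measured beside C1q because C1q is mainly a myeloid product. Of 14 markers tested, 4 rose and 2 fell with DMSO, and 5 rose and 1 fell with GSK, beside 25.2% and 24.3% of all genes that rose, so the DMSO count of rises is near the background. Those that rose in both comparisons were the mannose receptor Mrc1 (2.07 and 2.72), the lysozyme gene Lyz2 (2.54 and 2.90), the endotoxin co-receptor Cd14 (3.98 and 2.55) and the haemoglobin scavenger receptor Cd163 (1.89 and 3.48), and Trem2 rose with GSK (1.94). Mertk, a receptor for dying cells, fell in both (-0.72 and -0.53). These 6 were named after their values were seen. Csf1r, the receptor that maintains macrophages, stood at 4285 ± 318 (SD, n = 4) in the controls, 2626 ± 1218 (SD, n = 5) with DMSO and 2981 ± 717 (SD, n = 5) with GSK. Its changes were -0.86 (limma adjusted p = 0.0327) and -0.56 (limma adjusted p = 0.154). The GSK change passed with only those 2 groups fitted (limma adjusted p = 0.0227) and with the deposited values (limma adjusted p = 0.0253). It also passed with a replicate block (limma adjusted p = 0.0429) and among Xist-positive kidneys (limma adjusted p = 0.0305). The DMSO call was lost without any 1 of the controls and without DMSO replicate 1 or 4 (limma adjusted p from 0.0548 to 0.0783), by edgeR (adjusted p = 0.0649) and with Xist status in the fit (limma adjusted p = 0.221). Adgre1, which encodes F4/80, had changes of 0.85 (limma adjusted p = 0.172) and 0.93 (limma adjusted p = 0.142), and the lysosomal marker Cd68 of 1.04 (limma adjusted p = 0.107) and 1.06 (limma adjusted p = 0.102). Both passed in other fits: Adgre1 with DMSO by edgeR (adjusted p = 0.0400), by DESeq2 (adjusted p = 0.0166) and without DMSO replicate 4 (limma adjusted p = 0.00257), with GSK by DESeq2 (adjusted p = 0.0479), and Cd68 by edgeR (adjusted p = 0.0465 and 0.0433) and DESeq2 (adjusted p = 0.0196 and 0.0164). Without GSK replicate 3 Cd68 also passed with GSK (limma adjusted p = 0.0179). The summed level of the 14 markers was 12763 to 13918 in the controls, 14222 to 88234 with DMSO and 15052 to 33593 with GSK, and no marker was at 0 in any library. The sum of 88234 was that of DMSO replicate 1. That kidney had the lowest Csf1r of all libraries (1120), Adgre1 at 358 and the highest summed level of neutrophil markers (30037). The part of the macrophage markers in the C1q result was not tested.

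Within each library, C1qa was set against Csf1r, since a ratio does not depend on the size factor. C1qa to Csf1r reads stood at 0.170 to 0.413 in the controls, 0.771 to 3.19 with DMSO and 0.780 to 2.33 with GSK. Every i-TERTci kidney was above every control. The log2 difference from the controls was 2.93 with DMSO and 2.65 with GSK (two-sided exact permutation test over libraries, p = 0.0159 each, adjusted p = 0.0357 over 9 ratio tests). That is the smallest p that 4 against 5 libraries can give. GSK and DMSO differed by -0.28 (exact permutation p = 0.587, adjusted p = 0.661). Csf1r itself fell with DMSO and had a change of -0.56 with GSK that passed only in some other fits. Ratios of C1qa to the markers that rose were not tested.

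C4b and C2 supply the classical and lectin C3 convertase. C4b had 202, 151, 221 and 134 normalised reads in the controls, 11778, 1120, 5006, 2735 and 1288 with DMSO, and 3722, 1752, 884, 2884 and 3273 with GSK. No i-TERTci kidney reached down to the control range. Group means were 177 ± 41.0 (SD, n = 4), 4386 ± 4416 (SD, n = 5) and 2503 ± 1163 (SD, n = 5). C4b rose by 4.09 on the log2 scale with DMSO (SE 0.61, limma adjusted p = 0.000139) and by 3.67 with GSK (limma adjusted p = 0.000343). Its paralog C4a had a mean of 30.4 ± 6.69 (SD, n = 4) in the controls and changes of 0.30 (limma adjusted p = 0.478) and 0.19 (limma adjusted p = 0.667).

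Within both i-TERTci groups every Xist-negative kidney had more C4b than every Xist-positive one. With DMSO the Xist-negative kidneys were replicates 1, 3 and 4 and the Xist-positive ones replicates 2 and 5. With GSK the Xist-negative kidneys had 3722 and 3273 and the Xist-positive ones 1752, 884 and 2884. This split was noticed in the values and carries no test of its own. All controls were Xist-positive, so Xist status also moves with the comparison. With Xist status in the fit, the log2 change was 3.11 with DMSO (limma adjusted p = 0.000294) and 3.02 with GSK (limma adjusted p = 0.000166). Among Xist-positive kidneys alone the DMSO change was 2.78 (limma adjusted p = 0.000981).

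C2, the protease that pairs with C4, showed no such rise. Its values were 732, 552, 838 and 571 in the controls, 981, 877, 545, 501 and 595 with DMSO, and 662, 1228, 459, 489 and 769 with GSK. The 3 groups overlapped throughout. The changes were 0.02 (SE 0.28, limma adjusted p = 0.950; 95% confidence interval -0.57 to 0.62) and 0.03 (limma adjusted p = 0.945). The missed threshold does not show that levels were equal.

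Cfb, the corresponding protease of the alternative convertase, had 73.7, 210, 224 and 238 normalised reads in the controls. It had 655, 657, 588, 793 and 670 with DMSO and 826, 648, 512, 863 and 583 with GSK. All 10 i-TERTci kidneys were above all controls, and the DMSO kidneys spanned only 1.35-fold, against 27.6-fold for C3. The means were 186 ± 75.9 (SD, n = 4) in the controls, 673 ± 74.5 (SD, n = 5) with DMSO and 687 ± 153 (SD, n = 5) with GSK. Cfb rose by 1.98 on the log2 scale in both groups (SE 0.29, limma adjusted p = 7.29e-05 with DMSO and 7.93e-05 with GSK). DMSO replicate 4, the lowest of its group for C3 and all C1q chains, was the highest for Cfb.

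**Figure D3:**
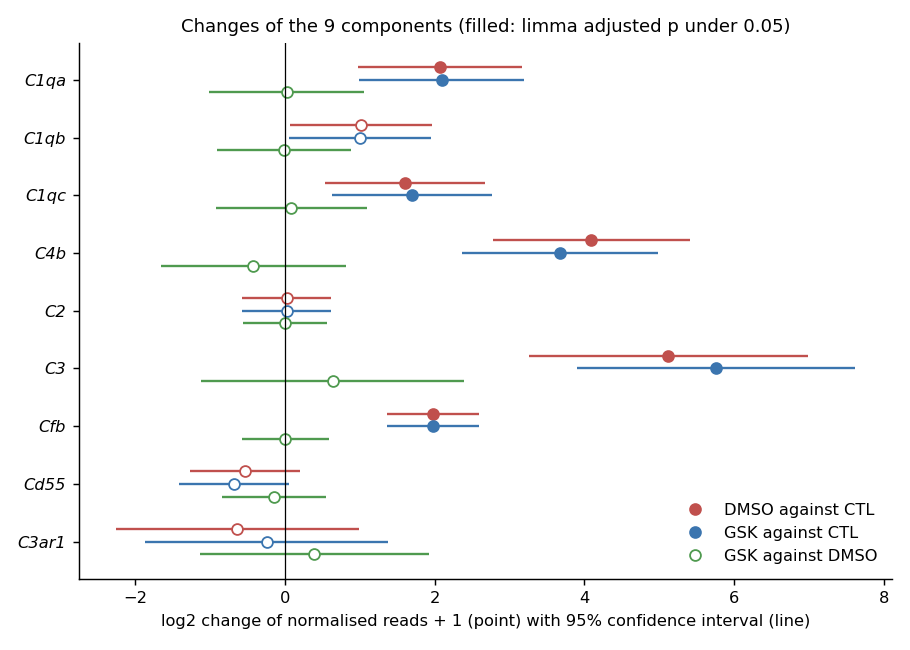
Log2 change of the 9 genes with its 95% confidence interval (horizontal axis) in DMSO against CTL, GSK against CTL and GSK against DMSO, from 1 limma fit of 14 libraries. Filled points passed an adjusted p of 0.05: C1qa, C1qc, C4b, C3 and Cfb against the controls in both treatments, and none between treatments.

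The classical and alternative pathways were compared through paired homologs within each library. The ratio of Cfb to C2 reads was 0.101, 0.380, 0.267 and 0.416 in the controls. It was 0.668, 0.749, 1.08, 1.58 and 1.13 with DMSO and 1.25, 0.528, 1.11, 1.76 and 0.758 with GSK. Every i-TERTci kidney exceeded every control. The log2 difference was 1.95 with DMSO and 1.96 with GSK (exact permutation p = 0.0159 each, adjusted p = 0.0357), and 0.01 between GSK and DMSO (exact permutation p = 0.984). Both genes share exon bases with Gm20547, so a part of either count may belong to the read-through.

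The other pair, C3 to C4b, compares the shared thioester protein with its classical homolog. Its ratio was 8.68 to 14.3 in the controls, 2.36 to 106 with DMSO and 11.9 to 119 with GSK. The log2 difference from the controls was 1.03 with DMSO (exact permutation p = 0.365, adjusted p = 0.480) and 2.08 with GSK (exact permutation p = 0.0317, adjusted p = 0.0571), so neither passed after adjustment. GSK against DMSO gave 1.06 (exact permutation p = 0.373, adjusted p = 0.480). The wide DMSO range runs from replicate 4, with low C3, to replicate 2, with low C4b. In each i-TERTci group 4 of the 5 kidneys had a C3 to C4b ratio above all controls. So the protease ratio, alternative over classical, passed the test and the thioester ratio did not. That contrast does not show that the 2 pairs differed. The C3 to C4b difference was larger than that of Cfb to C2 with GSK (2.08 beside 1.96) and smaller with DMSO (1.03 beside 1.95). C4b, a classical gene, and C3 both rose.

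**Figure D4:**
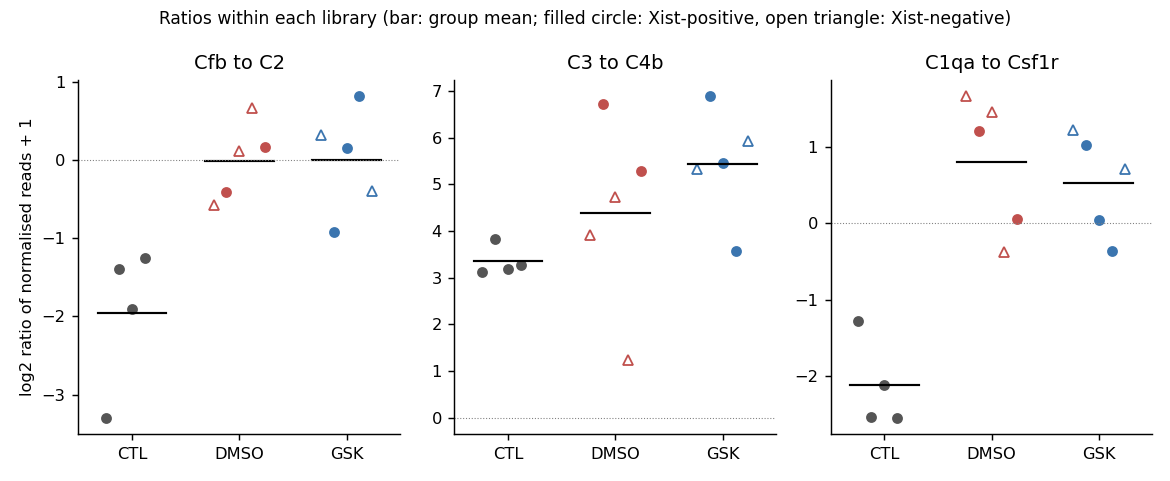
Log2 ratio of normalised reads + 1 within each library (vertical axis) for Cfb to C2, C3 to C4b and C1qa to Csf1r in the 3 groups; bars are group means, filled circles Xist-positive and open triangles Xist-negative libraries. The groups do not overlap with the controls for Cfb to C2 and C1qa to Csf1r, and they do for C3 to C4b.

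Cd55, the convertase inhibitor, had 1336, 1062, 1264 and 1291 normalised reads in the controls, 1384, 638, 708, 1109 and 660 with DMSO, and 973, 595, 1313, 1107 and 324 with GSK. In each i-TERTci group some kidneys lay in the control range and others well below it. The changes of -0.53 (SE 0.35, limma adjusted p = 0.221) and -0.68 (limma adjusted p = 0.121) did not pass. Without GSK replicate 3 the GSK value was -0.87 (limma adjusted p = 0.0489). Among Xist-positive kidneys the DMSO value was -0.93 (limma adjusted p = 0.0234), and among kidneys at 31 days or fewer the GSK value was -1.13 (limma adjusted p = 0.0428).

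C3ar1, the C3a receptor, had 186, 127, 121 and 145 in the controls, 10.9, 198, 192, 51.8 and 284 with DMSO, and 41.7, 177, 106, 158 and 204 with GSK. The i-TERTci kidneys lay on both sides of the controls, with the lowest value in DMSO replicate 1, where C4b was highest. Its changes were -0.63 (SE 0.76, limma adjusted p = 0.513) and -0.24 (limma adjusted p = 0.816). Without DMSO replicate 1 the DMSO value turned to 0.11, and without GSK replicate 1 the GSK value turned to 0.14.

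Between the 2 treatments the 9 genes showed no call, and the smallest unadjusted p among them was 0.447. At an unadjusted p under 0.05 there were 800 genes and 0 of the 9. edgeR called 0 genes and DESeq2 called 1 gene, none of the 9. The log2 differences ran from -0.42 for C4b (95% confidence interval -1.65 to 0.82) to 0.64 for C3. The narrowest intervals were those of C2 (-0.56 to 0.56), Cfb (-0.57 to 0.59) and Cd55 (-0.84 to 0.54), and those of C1qa (-1.01 to 1.06), C1qb (-0.90 to 0.88), C1qc (-0.92 to 1.09) and C3ar1 (-1.14 to 1.92) were wider. Libraries that do not overlap were found for 0 of the 9, beside 0.484% of all genes. For DMSO against CTL that count was 3 of 9 (C3, C4b and Cfb), beside 38.8%, and for GSK against CTL 5 of 9 (with C1qa and C1qc), beside 40.3%. Days on doxycycline and Xist status differ between the treatments, so among Xist-positive kidneys a treatment comparison is also one of days.

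On a scale of normalised reads per kilobase of exon, which takes account of gene length, the order of levels changed. The places of Cfb, C2 and C4b are uncertain, since their exon length includes bases shared with Gm20547 or nearly identical in C4a. In the controls C1qb led with 1875 ± 774 (SD, n = 4), followed by C1qa with 1005 ± 442, C1qc with 581 ± 160, C3 with 353 ± 73.0 and Cd55 with 255 ± 25.0. C2 at 174 ± 35.3, Cfb at 65.9 ± 26.9, C3ar1 at 33.6 ± 6.77 and C4b at 31.1 ± 7.20 came last, and the last 2 did not differ beyond their spread. With DMSO, C3 led with 18923 ± 13339 (SD, n = 5), ahead of C1qa with 4861 ± 2976, C1qb with 4116 ± 2141 and C1qc with 2085 ± 1216. C4b moved from the last place to the fifth, at 770 ± 775, ahead of Cfb at 238 ± 26.4, Cd55 at 185 ± 68.4, C2 at 181 ± 55.5 and C3ar1 at 34.2 ± 26.2. Within that order C1qa and C1qb, and likewise Cfb, Cd55 and C2, lie within each other's spread. With GSK, C3 led with 24550 ± 16517 (SD, n = 5) and C4b stood at 439 ± 204, in the same place of the order.

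Across kidneys of the same group, C3 moved with the C1q chains (correlation of deviations 0.83 to 0.85) and with C2 (0.69), and not with Cfb (-0.17). C4b went with neither C1qa (0.09) nor Cfb (0.04), and against C3ar1 (-0.63). Cd55 went against C1qc (-0.67) and C3ar1 (-0.64). By the same measure the tested genes most like C3 were Lix1l (0.93), Trf, which encodes transferrin (0.93), and Lbp, the lipopolysaccharide-binding protein (0.92). C1qb was most like C1qa, C1qc and Stap2 (0.96), and C4b most like Apcs, which encodes serum amyloid P (0.91), Sema4c (0.90) and Osmr, the oncostatin M receptor (0.89). Cfb was most like Nek9 (0.93), Aggf1 (0.93) and Polr2b, a subunit of RNA polymerase II (0.92). Cd55 was most like Luzp2 (0.97), Rmdn3 (0.94) and Flad1 (0.93), and C3ar1 most like Tlr9, a sensor of DNA (0.97), Kctd12b (0.96) and Samhd1 (0.96). These are descriptions over 14 libraries that share depth and composition. Single kidneys stand out in some of them. DMSO replicate 1 had the lowest C3ar1 (10.9) and the highest C4b (11778) of all libraries, and control replicate 1 the lowest Cfb (73.7). The weight of these kidneys in the correlations was not tested.

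The remaining complement genes were read from a list of 43, of which 40 were in both tables and 38 were tested. With DMSO 17 rose, 2 fell and 19 did not pass. With GSK 20 rose, 1 fell and 17 did not pass, and 0 differed between treatments. Calls in either direction, 19 and 21 of 38, were near the background of 48.3% and 46.3%, and the rises stand beside 25.2% and 24.3% of all genes. The same shares are the background of the counts by role that follow. Their median change was 1.14 with DMSO and 1.08 with GSK, beside 0.03 and 0.01 over all genes, and it was the same with Fcnb, which had no read in any control, set against a floor of 3 reads.

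Among the classical genes, 5 of 8 tested rose in each comparison, counting C1qa, C1qc and C4b. The other 2 were the C1q-bound proteases C1s1 (1.21 with DMSO, limma adjusted p = 0.000277; 1.51 with GSK) and C1ra (1.01, limma adjusted p = 0.00714; 1.32). In the lectin pathway, which enters the cascade at C4 from sugar patterns, 2 of 7 rose and 1 fell with DMSO, and 3 rose and 1 fell with GSK. The mannose-binding lectin Mbl1 rose from 52.8 ± 7.98 normalised reads (SD, n = 4) to 194 ± 81.5 (SD, n = 5) with DMSO and 158 ± 49.3 (SD, n = 5) with GSK. The protease Masp2 fell by 1.21 and 1.33, and its GSK call was lost at 31 days or fewer (limma adjusted p = 0.0635). Mbl2 rose by 1.79 with DMSO (limma adjusted p = 0.0215), a call lost without control replicate 3 or 4 or DMSO replicate 4, and its GSK change was 0.61 (limma adjusted p = 0.418). The other lectin genes called with GSK, named after their values were seen, were Fcna (2.42, limma adjusted p = 0.0191; lost without control replicate 2 or 3) and Masp1 (0.72, limma adjusted p = 0.0297; lost without any 1 of the controls or GSK replicate 2).

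In the alternative pathway 3 of 4 rose with each treatment: C3, Cfb and properdin, Cfp, which stabilises the convertase (1.34, limma adjusted p = 0.0185; 1.43, limma adjusted p = 0.0141). The Cfp call with DMSO was lost without control replicate 3 or 4 and with Xist status in the fit (limma adjusted p = 0.0630). The fourth gene, Cfd, encodes factor D, the protease that cuts factor B, and is known as an adipocyte product. It had 619, 22.3, 458 and 513 normalised reads in the controls, 1.21, 0, 0, 0 and 9.11 with DMSO, and 0, 106, 0, 6578 and 195 with GSK. All DMSO kidneys were below all controls (change of -7.02, limma adjusted p = 0.0172; 0.0530 by limma voom and 0.0904 with Xist status), and GSK kidneys lay on both sides (change of -2.51, limma adjusted p = 0.366). The size of the Cfd change with DMSO depends on the added 1, since most DMSO kidneys held 0 reads. It was -4.77 with 8 added (limma adjusted p = 0.0253) and -7.70 with 0.5 added (limma adjusted p = 0.0166). Adipoq, 1 of 5 adipocyte markers tested, had 66.0, 0, 58.2 and 53.0 in the controls, at most 1.85 with DMSO and 0, 15.5, 1.97, 1313 and 28.4 with GSK. Cfd and Adipoq were both lowest in control replicate 2 among the controls and highest in GSK replicate 4. The 5 markers as a set did not follow Adipoq: 1 rose and 0 fell in each comparison with controls, near the 25.2% and 24.3% of all genes that rose. Their summed level was 1640 to 2404 in the controls, 1540 to 5400 with DMSO and 3388 to 10192.5 with GSK. The part of adipose tissue in the Cfd result was not tested.

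Of the terminal components, which form the membrane pore, 3 of 5 tested rose in each comparison: C7 (3.08 and 3.07), C6 (2.34 and 2.60) and C8g (1.56 and 1.24). C8a had changes of -3.42 (limma adjusted p = 0.147) and -2.82 (limma adjusted p = 0.233). Its DMSO kidneys (41.3 to 611) lay below all controls (687 to 1750), where 38.8% of all genes did not overlap. The GSK kidneys (0.968 to 3674) lay on both sides. Of the receptors, 4 of 8 rose in each. These were the integrin chains of complement receptors 3 and 4, Itgam (3.46 and 3.30), Itgax (1.92 and 1.49) and Itgb2 (1.66 and 1.71), and the C5a receptor C5ar1 (1.91 and 1.68; its GSK call was lost at 31 days or fewer, limma adjusted p = 0.0532). Neutrophils carry several of these receptors, and all 10 neutrophil markers tested rose in both comparisons, with a summed level of 29.7 to 114 in the controls, 773 to 30037 with DMSO and 356 to 21014 with GSK. Up to 6 of the 10 were at 0 in a control library. The part of neutrophils in the receptor result was not tested.

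Among the regulators 5 of 15 tested rose with DMSO and 7 with GSK, and 0 fell. The DMSO count is near the 25.2% of all genes that rose. Cr1l, the rodent convertase inhibitor Crry, rose by 1.55 (SE 0.19, limma adjusted p = 1.52e-05) and 1.66, where Cd55 did not pass. Factor I, Cfi, which cuts C3b and C4b with cofactors, rose by 2.80 and 3.07, and the C4b-binding protein C4bp by 2.92 and 3.32. C4bp was low, at 3.01 to 15.3 normalised reads in the controls, and DMSO replicate 4 (14.8) lay in that range. With 8 added in place of 1 its changes were 2.11 and 2.43, and both passed. Clu, which encodes clusterin, an inhibitor of pore assembly, rose by 1.59 (limma adjusted p = 0.0207; lost without control replicate 3 or DMSO replicate 3) and 2.28. With GSK alone Vtn (1.10, limma adjusted p = 0.0365) and the C1 inhibitor gene Serping1 (0.68, limma adjusted p = 0.0408) also passed, and each lost its call without control replicate 1, 2 or 4, among others; both, like Clu, were named after their values were seen. Genes of activation and of restraint were both among those that rose.

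**Figure D5:**
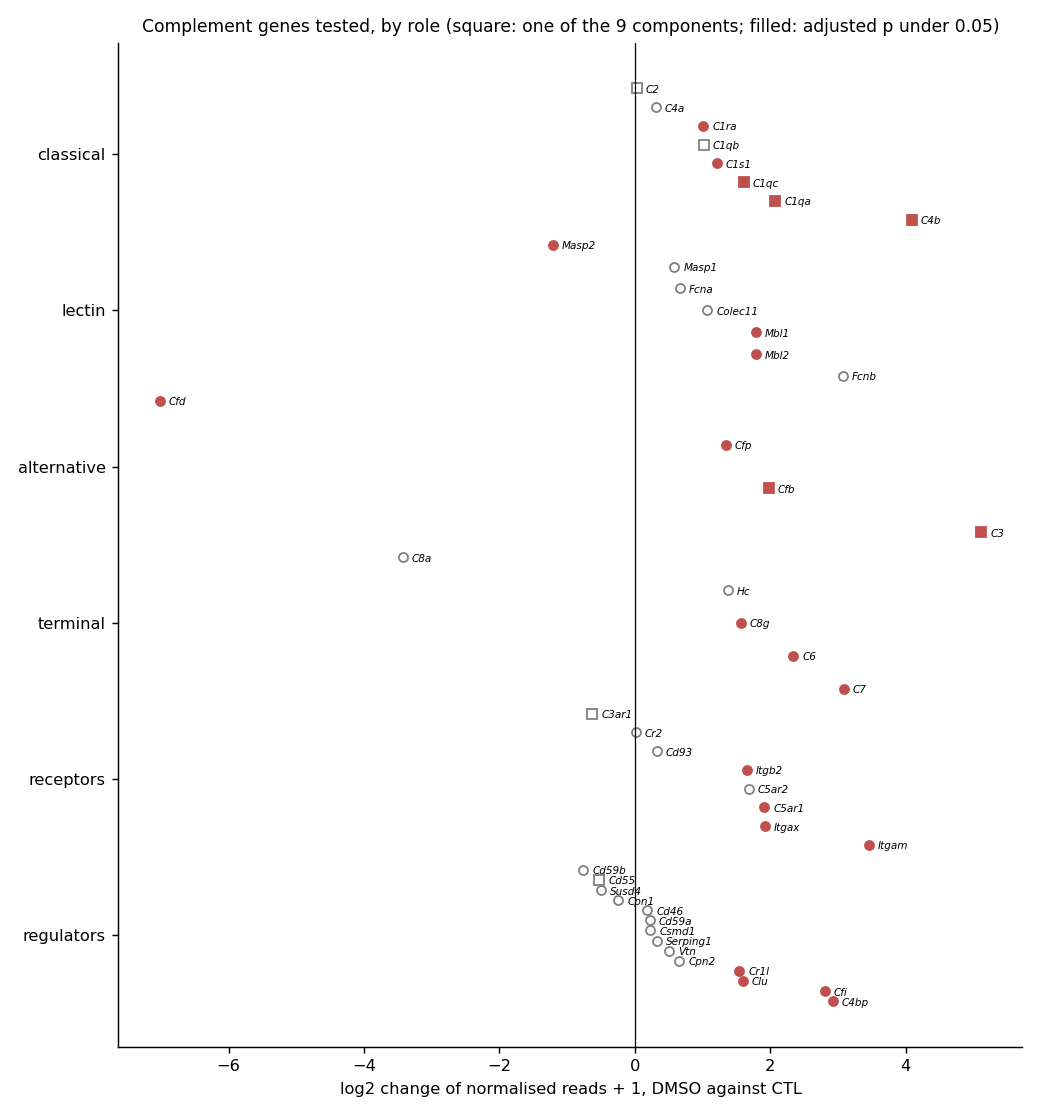
Log2 change in DMSO against CTL (horizontal axis) of complement genes tested, by role; squares are the 9 components, circles the other genes, and filled symbols passed an adjusted p of 0.05. C3 and C4b lie furthest to the right of the 9 (5.12 and 4.09). C7, Itgam, C4bp and Cfi are the other filled genes beyond 2.5, and Cfd lies at -7.02. Fcnb had no control reads and Cfd had none in most DMSO kidneys, so both positions depend on the added 1.

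Since circulating complement is mainly a liver product, hepatocyte markers were examined. Of 6 tested, 3 rose with DMSO and 2 with GSK, and 0 fell, beside 25.2% and 24.3% of all genes that rose. The GSK count is near that share. Alb, the defining hepatocyte transcript, had 262, 185, 2025 and 344 normalised reads in the controls, 233, 159, 76.9, 141 and 431 with DMSO, and 145, 61.0, 225, 501 and 97.6 with GSK. Alb was below every control in 6 of the 10 i-TERTci kidneys. The top of the control range, 2025, was control replicate 3 alone, and DMSO replicate 5 and GSK replicate 4 exceeded the other controls. Ttr, the thyroxine carrier, changed by 2.67 (limma adjusted p = 0.00421) and 2.28 (limma adjusted p = 0.0113), and the apolipoprotein gene Apoa1 by 0.36 (limma adjusted p = 0.651) and 0.96 (limma adjusted p = 0.219). The summed level of the 8 markers was 7822 to 12304 in the controls, 31733 to 145868 with DMSO and 37565 to 69602 with GSK, with at most 2 of the 8 at 0 in a library. Its part in the C3 and C4b results was not tested.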

How the data were processed

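Whole-kidney RNA of 14 mice (4 CTL, 5 DMSO, 5 GSK) was sequenced; the submitters' processing notes name FastQC, Trimmomatic, STAR, DESeq2 and mm10, and the labels require an RNA integrity number above 7. For the read counter and the annotation, nothing is stated in the labels or notes. The deposited tables, named as raw counts, hold signal: the authors' values are whole reads divided by 1 size factor per library, found from the values (all whole within 0.001 of a read), so reads were recovered. Control reads matched between the tables at every shared gene in the 3 columns compared (0 mismatches). The 23682 genes in both tables were used (539 and 482 were in only 1), and 22780 matched GENCODE M21.

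Recovered reads were scaled with size factors (median of ratios) taken over all 14 libraries. On log2 values after adding 1, limma 3.58.1 (R 4.3.3; trend and robust, 1 fit of 3 groups) tested the 18810 genes kept by filterByExpr, two-sided, with Benjamini-Hochberg adjustment at 0.05. edgeR 4.0.16 and DESeq2 1.42.0 were alternatives. 3 ratios were tested by exact permutation over libraries with scipy 1.17.1, adjusted over 9 tests. The limma script was tested on simulated data. Whether mice within a group shared litters is not stated; p-values measure the spread between these samples.

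All 9 components are named; from each complement list up to 4 other genes with the smallest p in DMSO against CTL, from the marker lists the leading genes where a result turns on them, and for 6 components the 3 genes of most similar pattern. Other values were chosen after they were seen. The members and lists were chosen with earlier results of these data known. Alternatives covered normalisation, pseudocount (8 and 0.5), filter, groups fitted, replicate block, Xist status, days and each library left out. The value of 1 complement regulator is not reported here and is not plotted.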

Additional observations from a re-analysis of the deposited data

How the results depend on the processing

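C3, C1qa, C1qc, C4b and Cfb kept their rise and their side of the threshold against the controls under every alternative run. The fold moved by over 1.5 times for C3 (DMSO log2 5.74 by edgeR and by DESeq2, 5.93 at 31 days or fewer and without DMSO replicate 4; GSK 6.60 at 31 days or fewer) and for C4b (DMSO 3.11 and GSK 3.02 with Xist status in the fit, DMSO 2.78 in Xist-positive libraries only, GSK 4.32 at 31 days or fewer). C1qb against the controls passed in 6 DMSO and 7 GSK alternatives, among them edgeR (DMSO adjusted p = 0.0369) and DESeq2 (0.0165 and 0.0286). With 1 library left out, 5 to 6 components passed with DMSO, 5 to 7 with GSK and 0 between treatments. Over all genes in GSK against DMSO, DESeq2 called 1 and the Xist-positive fit 2.

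Values near 0 that had no call changed sign. C3ar1 in DMSO against CTL was 0.037 by edgeR, 0.023 by DESeq2, 0.24 with Xist status and 0.73 in Xist-positive libraries; in GSK against CTL it was 0.34 with Xist status and 0.011 in Xist-positive libraries, where C2 was -0.026. In GSK against DMSO, edgeR gave -0.15 for C1qa, -0.034 for C1qc and -0.11 for C3ar1, DESeq2 gave -0.14, -0.030 and -0.10, and Xist status gave -0.0020 for C2. Xist-positive libraries gave -0.24 for C3, -0.76 for C1qa, -0.75 for C1qc, 0.46 for C4b, -0.15 for C2, -0.0096 for Cfb, 0.55 for Cd55, -0.72 for C3ar1 and -0.70 for the C3 to C4b ratio. Libraries at 31 days or fewer gave 0.043 for C1qb, 0.20 for C4b, -0.027 for C2 and -0.19 for C3ar1. The cause was not tested.

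With 1 library left out, the ranges were -0.11 to 0.14 for C2 and -1.04 to 0.11 for C3ar1 in DMSO against CTL, and -0.19 to 0.17 for C2 and -0.43 to 0.14 for C3ar1 in GSK against CTL. In GSK against DMSO they were -0.18 to 1.02 for C3, -0.41 to 0.28 for C1qa, -0.36 to 0.22 for C1qb, -0.34 to 0.34 for C1qc, -0.77 to 0.077 for C4b, -0.21 to 0.14 for C2, -0.082 to 0.11 for Cfb, -0.34 to 0.16 for Cd55 and -0.35 to 0.80 for C3ar1. The Cfb to C2 log2 ratio ranged from 1.51 to 2.19 in both comparisons with controls and from -0.20 to 0.24 between treatments, and C1qa to Csf1r from 2.71 to 3.22 and from 2.48 to 2.93. Their exact adjusted p then rose to at most 0.0804, since 4 against 4 libraries cannot give less than 0.0286 and 3 against 5 less than 0.0357 before adjustment. C3 to C4b in DMSO against CTL ranged from 0.44 to 1.81 and passed in 1 of these fits (exact permutation p adjusted to 0.0476). For the same reason the ratios missed the threshold at 31 days or fewer (Cfb to C2 1.78 and 1.92, C1qa to Csf1r 3.22 and 3.09) and in Xist-positive libraries (1.84, 1.98, 2.76 and 2.36).

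Replicate numbers were not taken as pairs, since the labels give them no shared source and not every same-numbered pair correlated above 0.1. The deviations of such pairs correlated from -0.060 to 0.085 (CTL and DMSO), 0.045 to 0.10 (CTL and GSK) and -0.031 to 0.335 (DMSO and GSK). Libraries correlated best with their own number in 4 of 8, 8 of 8 and 4 of 10 cases, the second a hint from the data and not the design. With a replicate block, 6 of the 9 passed in each comparison with controls (C1qb joined), 0 between treatments, and 9589, 9248 and 0 genes overall. The paired ratios were 1.91 and 2.06 for Cfb to C2 and 3.12 and 2.61 for C1qa to Csf1r (exact adjusted p = 0.188 each). That test swaps the members of each same-numbered pair. So few pairs cannot give a p under 0.05 whatever the values, so it cannot decide on the ratios.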

Other observations

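Other gene groups were read in the same kidneys. Of 10 acute-phase genes tested, which encode plasma proteins that the liver makes in inflammation, 9 rose in DMSO against CTL and 9 in GSK against CTL (limma, against 25.2% and 24.3% of all genes tested). The fibrinogen chain Fgg stood at 460 ± 102 normalised reads (SD, n = 4) in the controls, 113324 ± 162738 (SD, n = 5) with DMSO and 34403 ± 32344 (SD, n = 5) with GSK. Of 6 injured tubule markers 5 rose and 1 fell in each comparison with controls, and of 6 proximal tubule markers 5 fell. The injury marker that fell was Havcr1. It had 14048 to 23147 normalised reads in the controls, 713 to 10306.5 with DMSO and 1138 to 7848 with GSK. Endothelial markers gave 1 rise and 3 falls of 6 in each, and podocyte markers 2 falls of 6. Of the fibroblast and mural markers 0 of 6 passed with DMSO and 1 rose with GSK. The markers of the other nephron segments gave 3 falls of 6 in each. Of the adipocyte markers 1 of 5 rose in each. Over all genes tested 23.1% fell with DMSO and 22.1% with GSK, and 48.3% and 46.3% passed in either direction. The counts of podocyte, fibroblast and mural, other nephron and adipocyte markers that passed are near or below the latter shares. All calls of the podocyte and other nephron markers were falls, beside the 23.1% and 22.1% of all genes that fell. In GSK against DMSO 0 genes of these lists passed by limma, as over all genes.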
